A study of Mus musculus with 2 samples.

Results

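Hair cortex keratinocytes, called cortex cells below, were examined in mouse dorsal skin of a control group (Con) and of a testosterone-induced model of androgenetic alopecia (TP). Cells were chosen by their own keratin counts. A barcode was taken where Krt31, Krt33a, Krt33b, Krt34, Krt81 and Krt86 together made up at least 50 of every 10000 of its unique molecular identifiers (UMIs, each a captured transcript molecule), where at least 2 of these 6 keratins were detected, and where the inner root sheath keratins Krt71, Krt25, Krt27 and Krt28 together stayed below 150 per 10000. The rule found 89 cells among 62289 barcodes with 200 to 8000 genes and at most 10% mitochondrial UMIs, of which 57 came from Con and 32 from TP. Both groups were male C3H/HeN mice shaved on the back, 7 weeks old at the start and 9 weeks old at harvest. Con received vehicle, and TP received 0.5 mg of testosterone propionate per day by subcutaneous injection. Skin of 15 mice was pooled for each group, dissociated with collagenase D and loaded as 1 library, so no difference between the groups has a replicate and no test was possible. Mice that also received an antibody were not analysed here. Intervals are at 95% and describe counting error alone, leaving out any variation between cells, mice, dissociations or libraries. Those of summed UMIs are therefore too narrow where few cells hold most of the UMIs.

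The hair shaft is built by matrix keratinocytes of the hair bulb, which stop dividing, move upwards and fill with type I and type II keratins that pair into filaments. Cells of the cortex, the main body of the shaft, switch on their keratins in sequence, with Krt35 among the early members and Krt31, Krt33a, Krt33b, Krt34, Krt81, Krt83 and Krt86 later. Cysteine-rich and glycine- and tyrosine-rich keratin-associated proteins (KAPs) then crosslink the filaments before the cell loses its nucleus. The cuticle covers the cortex and uses Krt32 and Krt82, while the inner root sheath, which moulds the growing shaft from outside, uses Krt25, Krt27, Krt28, Krt71 and trichohyalin (Tchh).

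The cortex cells held 308536 UMIs in Con and 299939 in TP. A Con cell had a median of 3664 UMIs (796 to 29309) and 1891 genes, and a TP cell a median of 6311 UMIs (654 to 49787) and 2260 genes. The kept barcodes of the whole libraries differed in the same direction, with medians of 2162 and 5166 UMIs. Mitochondrial UMIs had a median of 7.80% in the Con cells and 5.71% in the TP cells, and 37 Con and 23 TP barcodes with enough cortex keratin were left out because they exceeded 10%. The 2 libraries had 303 barcode sequences in common. Of the cortex cells 2 carried such a barcode, and none was a cortex cell in both libraries.

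Krt31 and Krt33a, a pair of type I keratins of the cortex, supplied most of the UMIs that selected the cells, and these values are a description of the selection. Krt31 made up 52.9% of the 3299 UMIs of the 6 keratins in Con and 46.5% of the 4513 in TP, and Krt33a made up 34.5% and 40.3%. The lowest, median and highest Krt31 level of a cell was 0, 39.9 and 154 per 10000 in Con and 1.12, 49.3 and 145 in TP. For Krt33a these values were 3.75, 33.6 and 131 in Con and 7.57, 37.6 and 192 in TP. The ranges of the 2 libraries overlapped almost entirely for both genes. Krt33b had a UMI in 23 of 57 Con and 15 of 32 TP cells, and Krt81, a type II keratin, in 31 and 18. Krt86, the other type II keratin of the rule, was detected in 39 and 21 cells. Krt34 was nearly silent, with 15 UMIs in 7 Con cells and 27 UMIs in 6 TP cells. Between 2 and 6 of the keratins were detected per cell, with a median of 4 in both libraries. The sum of the 6, called the cortex keratin load below, had a median of 76.6 per 10000 in Con (50.3 to 345) and 93.9 in TP (51.1 to 481). The nearest barcodes below the limit had loads of 45.9 in Con and 48.1 in TP, so the limit cuts a continuous range. Type I genes of the rule lie within chromosome 11 (Krt31 at 100046646 to 100050551, Krt33a at 100011199 to 100016212, GRCm38), and Krt81 (101459061 to 101463765) and Krt86 (101473478 to 101479983) lie on chromosome 15. These genes are close relatives. Of the 451 stretches of 50 bases in the last 500 bases of the Krt31 transcript, 27 also occur in Krt33b, and 13 of the 451 of Krt33b occur in Krt31. No such stretch was shared by any other pair among Krt31, Krt33a, Krt33b and Krt34 or among Krt81, Krt83, Krt86 and Krt87 (GRCm39 transcripts).

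**Figure D1:**
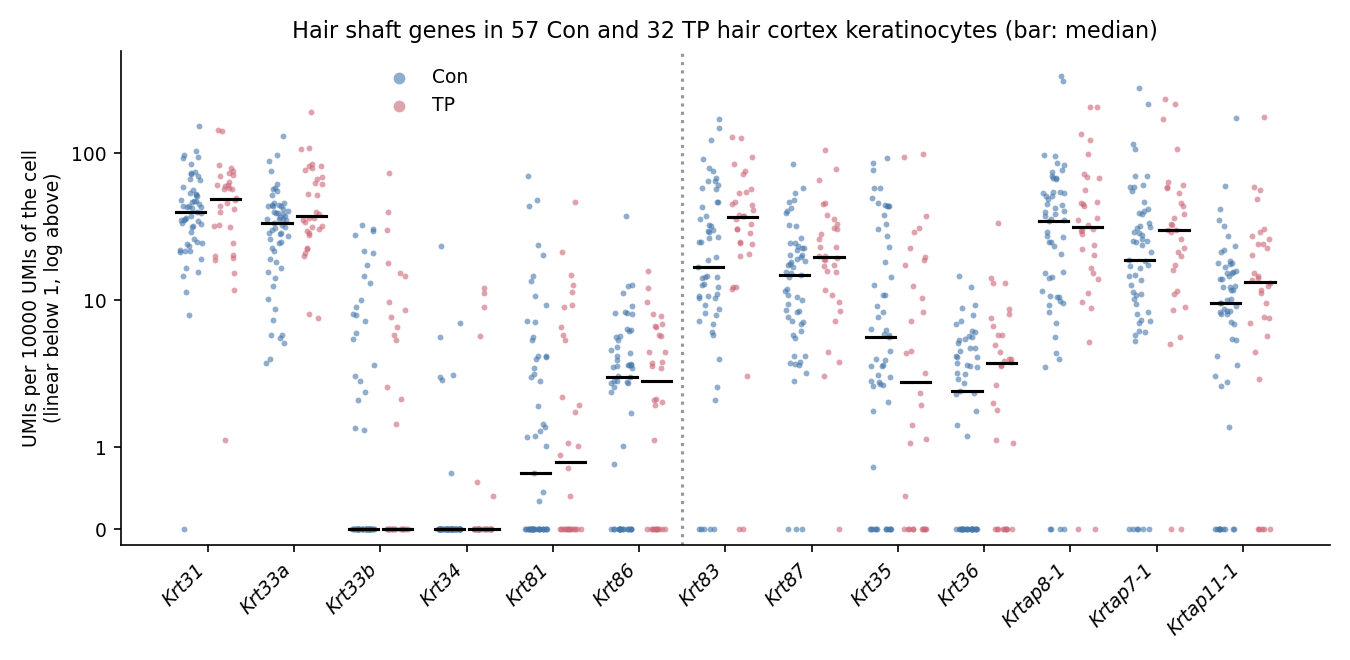
Level of hair shaft genes in each cortex cell, as UMIs per 10000 UMIs of the cell on an axis that is linear below 1 and logarithmic above, for 57 Con and 32 TP cells. Each point is a cell and each bar the median, the 6 genes left of the dotted line selected the cells, and the points of the 2 libraries overlap for each gene shown.

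The proximal promoters of 5 genes are shown, those of the keratins of the rule and of the 3 most abundant KAP genes that the RefSeq table holds, because these genes encode the shaft proteins described here. The 100 bases before the transcription start follow, 5′ to 3′ on the strand of the gene (the minus strand for all 5), from RefSeq on GRCm38.p6. Krt31, Krt33b and Krt34 were found there among the 6 keratins of the rule, and Krtap8-1 and Krtap11-1 encode KAPs described below. Capitals mark TATAAA, the core of a TATA box, and CACCC, a motif chosen after the sequences had been seen.
Krt31 (chr11:100050552-100050651): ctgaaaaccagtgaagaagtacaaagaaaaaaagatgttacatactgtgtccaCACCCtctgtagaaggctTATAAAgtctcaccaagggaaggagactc
Krt33b (chr11:100029869-100029968): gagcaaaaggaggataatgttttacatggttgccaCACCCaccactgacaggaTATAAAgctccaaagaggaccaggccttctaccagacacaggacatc
Krt34 (chr11:100041555-100041654): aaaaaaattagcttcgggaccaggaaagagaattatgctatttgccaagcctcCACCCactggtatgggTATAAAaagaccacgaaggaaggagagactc
Krtap8-1 (chr16:89487953-89488052): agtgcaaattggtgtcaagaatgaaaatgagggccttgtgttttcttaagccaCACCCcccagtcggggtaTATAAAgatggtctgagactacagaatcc
Krtap11-1 (chr16:89571184-89571283): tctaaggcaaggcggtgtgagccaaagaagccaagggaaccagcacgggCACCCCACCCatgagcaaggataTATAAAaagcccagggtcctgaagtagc

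All 5 windows held TATAAA, starting 28 to 47 bases before the start, and all 5 held CACCC upstream of it. Searched on both strands, TATAAA (reverse TTTATA) occurred in 5.56% of the 32851 windows of the same length in the RefSeq table, and CACCC (reverse GGGTG) in 27.2%. CTTTGA (reverse TCAAAG), a form of the core that LEF1 and its relatives recognise, occurred in 4.97% of all windows and in none of the 5. Other forms of that core were not searched, so no absence of such sites is read from this. A match describes these letters only.

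Cortex cells made up 0.135% of the Con barcodes (0.102 to 0.175) and 0.160% of the TP barcodes (0.109 to 0.225), a ratio of 1.18 (0.742 to 1.86) whose interval includes 1. Their nearest neighbours were scarcer in TP. Hair shaft precursors were defined as barcodes with at least 10 Krt35 UMIs per 10000 and a cortex keratin load below 50, and they numbered 4692 (11.1%) in Con and 556 (2.77%) in TP, a ratio of 0.25 (0.228 to 0.273). Inner root sheath cells, with at least 150 of their keratins per 10000, numbered 1010 and 165, a ratio of 0.344 (0.290 to 0.406). The precursor limit is met by 1 Krt35 UMI in a barcode of 1000 UMIs, and 26.9% of the Con and 16.0% of the TP precursors had 1 Krt35 UMI. Of the immune barcodes 3.66% in Con and 0.252% in TP met the limit. Thinned to 1000 UMIs, 20% and 4.62% of the immune barcodes had a Krt35 UMI. Precursors with at least 3 Krt35 UMIs made up 5.72% and 2.15% of the barcodes, and 0 of 82 Con and 0 of 397 TP immune barcodes met that limit, with upper bounds of 4.4% and 0.925%. There were 5.64 cortex cells per 100 inner root sheath cells in Con and 19.4 in TP. With the limit lowered to a load of 25, the ratio of the cortex shares was 0.677, so the direction of the small difference in share depends on the limit. Between loads of 25 and 50 there were 105 Con and 20 TP barcodes, a ratio of shares of 0.401 (0.236 to 0.652), against 1.05 (0.574 to 1.87) between 50 and 100. Between 10 and 25 the barcodes were shallow, with median UMI counts of 872 and 948, so that 1 or 2 keratin UMIs placed a barcode there.

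**Figure D2:**
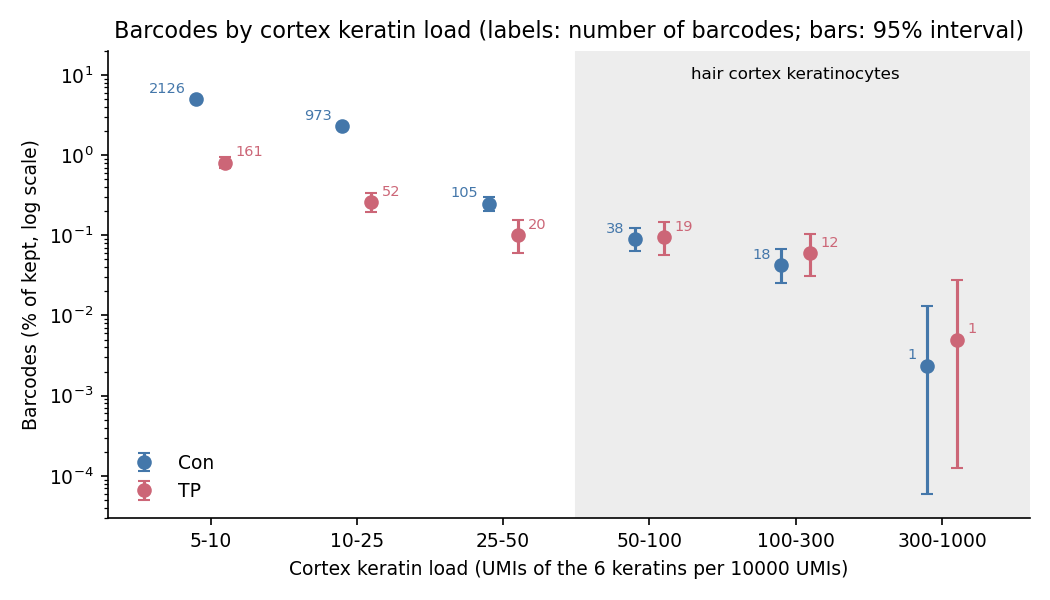
Share of kept barcodes in each class of cortex keratin load, in percent on a log axis, for Con and TP, with 95% binomial intervals and the number of barcodes beside each point. Con lies above TP in the plotted classes from 5 to 50 per 10000, and the intervals overlap in the shaded classes that hold the cortex cells.

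The label was checked on genes that played no part in the choice of cells, and they included further hair shaft genes at high levels. Krt83 and Krt87, type II keratins of the shaft, averaged 3902 and 2000 counts per 1000000 UMIs (CPM) in Con cortex cells and 5764 and 3224 CPM in TP, against 50.1 to 98.2 CPM in the precursors and 1.39 to 12.3 CPM in the inner root sheath cells. Krt83 had a lowest, median and highest level of 0, 16.9 and 172 per 10000 in the Con cells and 0, 36.7 and 129 in the TP cells. It was detected in 52 of 57 Con and 30 of 32 TP cells, and in 2.44% of 82 Con and 3.27% of 397 TP immune barcodes, which should lack it and had medians of 2383 and 4461 UMIs. After thinning each cell to 1000 UMIs these shares were 76.4% and 86.7% in the cortex cells and 2.5% and 0.769% in the immune barcodes. The summed KAP genes reached 13428 and 20264 CPM in the cortex cells and 274 and 150 CPM in the precursors. The 10 genes most enriched over all other barcodes in both libraries, keratin and KAP genes left aside, were Gprc5d, Psors1c2, Ly6g6d, Hephl1, Rnf182, Lrrc15, Nim1k, Smpd3, Slco5a1 and Tagln3. This ranking was taken from these same cells, so it describes them and is no check of the label. Most TP UMIs of Psors1c2 and of Ly6g6d lay in 1 cell described below. Gprc5d, an orphan receptor known from hair follicles and plasma cells, stood at 651 CPM in Con and 1164 CPM in TP, and at 7.14 CPM or less in precursors and inner root sheath cells. Hephl1, a copper-dependent ferroxidase whose loss alters hair, stood at 1342 and 1074 CPM. Markers of several other lineages were close to 0, with 3 and 2 UMIs of 6 immune genes, 1 and 1 of 5 endothelial genes, and 2 and 2 of 4 smooth muscle genes in Con and TP. Ptprc was at 0 in the TP cells, and 4 of the 6 immune and 4 of the 5 endothelial markers were at 0 in each library. Melanocyte markers had 80 UMIs in Con, 47 of them in 1 cell, and 4 in TP. Dermal papilla markers had 40 UMIs in Con, 32 of them in 1 cell, and 4 in TP. Fibroblast and suprabasal epidermis markers were not near 0 in TP. The fibroblast list had 25 UMIs in 18 of 57 Con cells and 531 UMIs in 22 of 32 TP cells, 480 of them in 1 cell, and the suprabasal list, found in every cell, stood at 1439 and 12252 CPM. The cortex keratins themselves were present in 14.6% of the Con and 6.80% of the TP immune barcodes at mean loads of 0.527 and 0.137 per 10000, with a highest load of 15.7, far below the limit of 50.

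Along the cortex keratin load, shaft genes rose at different points. The other hair shaft keratins increased from 4018 CPM in Con barcodes with a load of 25 to 50 to 6315 CPM at 50 to 100 and 11104 CPM from 100 up, and in TP from 5341 to 7516 and 13791 CPM. The KAP genes increased over the same classes from 3403 to 6109 and 21860 CPM in Con and from 3578 to 6898 and 29754 CPM in TP. Krt35, an early shaft keratin counted among the other hair shaft keratins, was lowest from 100 up. It went from 2720 to 3015 and 1186 CPM in Con and from 3853 to 1975 and 650 CPM in TP. At a load of 25 to 50 it supplied 844 of the 1247 UMIs of those keratins in Con and 671 of 930 in TP. Lef1, the nuclear partner of β-catenin in the hair matrix, went from 2504 to 1804 and 1716 CPM in Con and from 2268 to 1429 and 582 CPM in TP. The 20 cell cycle genes together decreased from 1144 to 993 and 718 CPM in Con and from 1022 to 329 and 194 CPM in TP. In both libraries the cells with the most cortex keratin thus held the most KAP transcripts and the fewest Krt35 and cell cycle transcripts of these 3 classes.

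**Figure D3:**
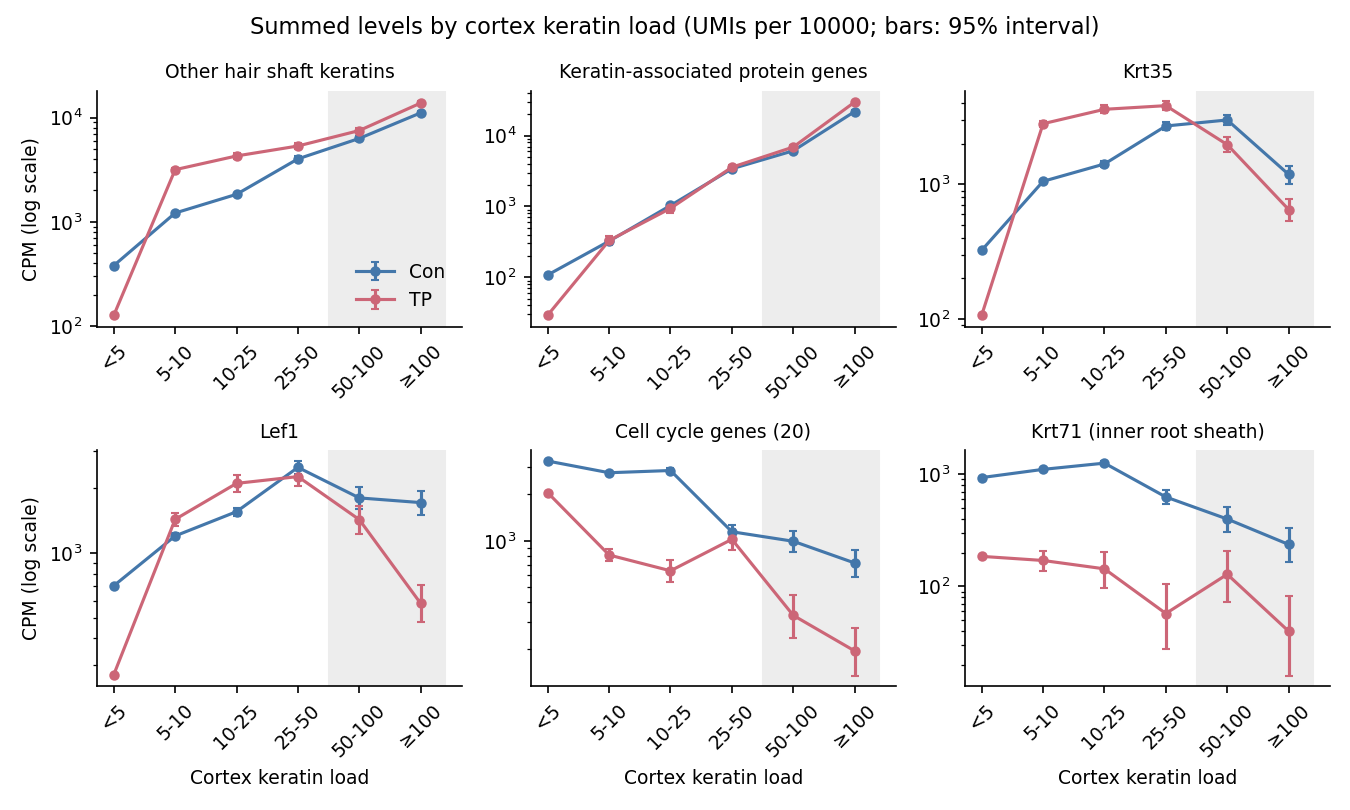
Summed level (CPM, log axis) in barcodes grouped by cortex keratin load, in UMIs per 10000, for Con and TP, with 95% Poisson intervals, and with the cortex cells shaded. The other shaft keratins and the KAP genes climb with the load in both libraries, while Krt35 and the cell cycle genes are lower above a load of 100 than between 25 and 50.

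For the comparison of TP with Con, UMIs were summed over the cells of each library, and genes with at least 50 UMIs in both together were compared on the scale of log2 of counts per 10000 plus 0.1. Of 2356 genes, TP cells had 97 (4.12%) at 2-fold or more above Con and 65 (2.76%) at 2-fold or more below, and the median difference over all genes was -0.14. Each call had an interval of the ratio that excludes 1. The UMI and fold limits fix this in advance, so it adds no support. Of the 97 higher genes 28 had over 0.5 of their TP UMIs in 1 cell, so the cells behind a value are given for many of the genes named. When the cell with the highest count was left out for each gene in each library, 84 genes were higher and 94 lower, and 77 and 62 of the first set stayed past 2-fold. The limit of 50 UMIs was not applied again after this removal, so genes left with few UMIs remain in these counts.

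The shaft keratins Krt83 and Krt87, which took no part in the choice of cells, were higher in TP cortex cells by less than 2-fold. Krt83 was 1.48 times as high (1.37 to 1.59) and Krt87 1.61 times (1.46 to 1.79). Krt87 had a lowest, median and highest level of 0, 15.0 and 84.2 per 10000 in Con and 0, 19.6 and 105 in TP, so the cells of the libraries overlapped. Krt36, a type I shaft keratin, was at 366 and 480 CPM. Of the 6 shaft keratins outside the rule that were compared, 2 (Krt32 and Krt82) passed 2-fold, both through 1 cell described below, and the median difference of 0.62 was 0.06 without the highest cells. Neither Krt32 nor Krt82 would have had enough UMIs to be compared without that cell. Krt35 alone among the abundant shaft keratins was lower, at 2165 CPM in Con and 1200 CPM in TP (ratio 0.554, 0.486 to 0.631), short of 2-fold. The ratio was 0.461 (0.398 to 0.534) with the highest cell left out in each library, which passes 2-fold, and 0.735 (0.644 to 0.837) without 3 TP cells described below. Its median cell had 5.67 per 10000 in Con and 2.77 in TP, and the highest cells had 92.5 and 99.3. In the precursors, which were chosen for it, Krt35 stood at 2533 and 3056 CPM. Krt39 had 13 and 17 UMIs, Krt84 had 0 and 1, and Krt40 had none in either library, which allows up to 9.72 CPM in Con and 10.0 CPM in TP (3 counts).

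KAP UMIs came from a narrow set of genes. Of 57 in the files 17 had a UMI in a Con cortex cell and 19 in a TP cortex cell, and Krtap8-1 and Krtap7-1, which encode glycine- and tyrosine-rich proteins, supplied 78.5% and 76.1% of all KAP UMIs. Krtap8-1 had a lowest, median and highest level of 0, 34.9 and 337 per 10000 in Con and 0, 31.6 and 206 in TP. Krtap7-1 had 0, 18.9 and 280 in Con and 0, 30.2 and 236 in TP, and the 2 libraries overlapped for both genes. Krtap8-1 was 1.37 times as high in TP (1.29 to 1.46), Krtap7-1 1.57 times (1.47 to 1.68) and Krtap11-1 1.57 times (1.41 to 1.75). The highest TP cell held 717 of 2436 UMIs of Krtap8-1 and 822 of 2188 of Krtap7-1. Without 3 TP cells described below the ratios were 1.19 (1.11 to 1.27), 1.48 (1.38 to 1.59) and 1.61 (1.44 to 1.80). Over the 7 KAP genes compared, 2 (Krtap17-1 and Krtap26-1) were at least 2-fold higher, none was lower, and the median difference was 0.65. Both reached the UMI limit for comparison through 1 TP cell described below. Krtap16-3 and Krtap22-2, lower in TP, stayed below that limit, as did the Krtap24 gene, which was higher (3 and 35 UMIs). No balance of rises and drops among KAP genes is therefore read from these counts. Krtap15 and Krtap13-1 were at 467 and 172 CPM in Con and 643 and 303 CPM in TP. Krtap14 had 24 and 11 UMIs. Krtap16-3 had 36 UMIs in 5 Con cells, 24 of them in 1 cell, and 1 UMI in TP, and Krtap22-2 had 18 UMIs in 3 Con cells and 1 in TP. No cortex cell held a UMI of the 8 Krtap4, 5 Krtap5 or 6 Krtap19 genes. Stretches shared among KAP genes were not searched, so no silence of these genes is read from this.

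A single TP cell of 17469 UMIs, with a load of 186 per 10000, carried most TP transcripts of several genes of the hair cuticle, though only 139 of the 514 UMIs of the cuticle list as a whole. It held 86 of the 91 TP UMIs of Krt32, 45 of 46 of Krt82, 136 of 139 of Krtap17-1 and 79 of 80 of Krtap26-1. S100a3, a calcium-binding protein of the cuticle, had 594 UMIs in Con and 3499 in TP, 2325 of them in this cell. The median S100a3 level of a cell was 6.16 per 10000 in Con and 6.21 in TP, and the highest 172 and 1331. The summed S100a3 ratio was 6.06 (5.55 to 6.62), and the log2 difference of 2.59 was 1.27 without the highest cells. The next TP cells held 581 and 335 UMIs. With the 2 or the 3 cells richest in S100a3 left out in both libraries, the ratio was 1.63 (1.43 to 1.86) and 0.820 (0.694 to 0.969). Krtap17-1 had 1 UMI in Con, a ratio of 143 (25.2 to 5688), and Krtap26-1 had none, which makes it at least 27.4-fold higher against 3 counts summed over Con. Without the highest cells the Krt32 and Krt82 differences turned from 2.78 to -0.18 and from 2.06 to -0.62. Psors1c2 (566 of 759 UMIs), Ly6g6d (180 of 309) and Procr (48 of 48) also had most of their TP transcripts in this cell. The rest of the TP cells held 5 UMIs of Krt32 and 1 of Krt82, against 11 and 9 in Con. Of the 3 cuticle markers compared, which include Krt35, 2 were higher, with a median difference of 2.06, while their summed level was lower in TP (2272 and 1714 CPM) because Krt35 makes up most of it. The 2 higher markers, Krt32 and Krt82, would not have had enough UMIs to be compared without the cell of 17469 UMIs. No general rise of cuticle markers is therefore read from this count and median.

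Another TP cell, of 8923 UMIs and with a load of 56.0, held 157 of 165 UMIs of Col1a1, 154 of 175 of Col1a2, 128 of 140 of Col3a1 and 38 of 48 of Dcn, the collagens and the proteoglycan of fibroblasts. It held 480 of the 531 fibroblast marker UMIs of the TP cells, against 25 in all Con cells, and was among the 3 TP cortex cells removed by the doublet score. The Col1a1 ratio of 84.9 (23.1 to 707) was 2.76 (0.395 to 30.5) in the 29 TP cells left after this cell, the cuticle-rich cell and a cell of 49787 UMIs were taken out. In those 29 cells the fibroblast markers together were 2.04 times the Con level (1.20 to 3.54), and fibroblast markers were also higher in TP in all other barcodes, with Col1a1 at 124 and 1122 CPM. The part of the other cells in this difference was not tested.

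**Figure D4:**
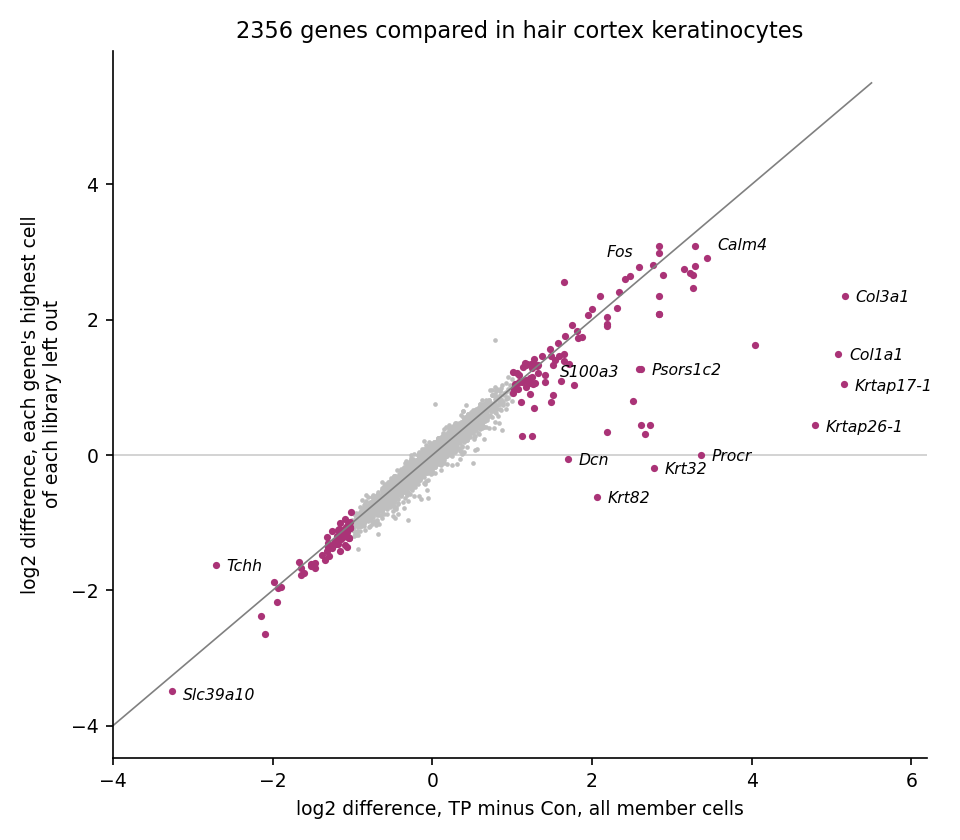
Difference between TP and Con cortex cells for 2356 genes, as log2 of counts per 10000 plus 0.1, with all cells (horizontal) and with the highest cell for each gene left out in each library (vertical); genes at least 2-fold apart are coloured. Genes on the diagonal do not rest on 1 cell, while Krt32, Krt82, Dcn and Procr drop to 0 or below.

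Epidermal transcripts were higher in TP cortex cells. Krt10, a keratin of the suprabasal epidermis, had a lowest, median and highest level of 0, 4.56 and 41.7 per 10000 in Con and 5.22, 13.3 and 262 in TP, with a UMI in 51 of 57 Con and all 32 TP cells. Its ratio was 9.55 (8.15 to 11.2), and 825 of the 1587 TP UMIs lay in the cell of 49787 UMIs. Without this and the other 2 cells named above the ratio was 5.98 (5.05 to 7.10), and a further TP cell held 331 of the UMIs that remained. With the 2 or the 3 cells richest in Krt10 left out in both libraries, it was 4.34 (3.56 to 5.34) and 3.24 (2.61 to 4.06). The TP cells were uneven, with 6 of 32 between 140 and 262 per 10000, 1 at 63.8 and the others at 23.2 or less, against a highest Con cell of 41.7. Of those 6 cells 4 had 1030 UMIs or fewer, and their levels rest on 11 to 27 Krt10 UMIs. Krt1, its type II partner, was at 256 and 1964 CPM, Krtdap, a secreted protein of differentiating keratinocytes, at 467 and 3401 CPM, and Sbsn, or suprabasin, at 156 and 1580 CPM. Most TP UMIs of Krtdap and of Sbsn lay in the cell of 49787 UMIs. Without the 3 TP cells their ratios were 4.36 (3.60 to 5.29) and 5.86 (4.26 to 8.20). All 4 suprabasal markers compared were higher, with a median difference of 3.06 and of 2.57 without the highest cells. Calm4 and Krt77, also known from the upper epidermis and sweat ducts, were 11.8 (8.20 to 17.7) and 10.2 (7.82 to 13.5) times as high, with 167 of 357 and 285 of 604 TP UMIs in 1 cell. The same markers were higher in TP in barcodes that should lack them. The immune barcodes had 6522 CPM of suprabasal markers in Con and 15745 CPM in TP, above the 1439 and 12252 CPM of the cortex cells, and all other barcodes had 7302 and 24922 CPM. After thinning every cell to 1000 UMIs, which left out 2 cells of each library, 40% of Con and 76.7% of TP cortex cells had a Krt10 UMI, against 51.2% and 74.9% of the immune barcodes. The Con share lay below that of the immune barcodes and the TP share close to it, so no expression is read from these shares. The 2 cells with the highest suprabasal levels, at 437 and 373 per 10000, exceeded the average TP immune barcode. So did others, since Krt10 alone was at 166 to 262 per 10000 in the 5 TP cells highest in it. What these transcripts came from was not tested.

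Inner root sheath transcripts were lower in TP cortex cells. All 4 of the keratins compared were at least 2-fold lower in TP, with a median difference of -1.63, and 3 of them (Krt25, Krt28 and Krt71) had a part in the choice of cells, although their limit excluded no barcode. Krt71 had 100 UMIs in 45 Con cells and 23 UMIs in 15 TP cells, with medians of 3.18 and 0 per 10000 and highest cells of 21.6 and 15.3. Krt73, which the rule did not use, was at 123 and 43.3 CPM (ratio 0.352, 0.172 to 0.675), and its log2 difference was -0.97 without the 3 TP cells. Tchh was at 600 and 83.4 CPM (0.139, 0.0877 to 0.212), with 108 of its 185 Con UMIs in 1 cell, and its difference of -2.71 was -1.62 without the highest cells. Inner root sheath keratins were also lower in the immune barcodes, at 786 CPM in Con and 226 CPM in TP. Those barcodes were chosen with Krt5, Krt14, Krt71 and Krt25 together under 10 per 10000, which limits these levels in advance. Inner root sheath cells were 0.344 times as frequent in TP. The part of free transcripts or of these cells in the difference was not tested.

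Proliferation transcripts were lower in TP. The 20 cell cycle genes summed to 865 CPM in Con (765 to 976) and 250 CPM in TP (197 to 313), a ratio of 0.289 (0.221 to 0.375), and it was 0.310 in the 29 TP cells. Stmn1, a microtubule regulator of dividing cells, and Hmgb2 were the 2 members with enough UMIs to compare, and both were lower (ratios 0.220 and 0.376). Mki67 had 41 UMIs in 21 Con cells and 6 UMIs in 6 TP cells. Hmgb1 and Ccnd2, a D-type cyclin of the hair matrix, stood at 386 and 214 CPM in Con and 90.0 and 63.3 CPM in TP. Both lie outside the cell cycle list and are named because they were among the largest drops. Their lower levels thus follow from how they were chosen and add no separate evidence on proliferation. Cell cycle transcripts were lower in TP in precursors as well (2115 and 1106 CPM) and in immune barcodes (2595 and 887 CPM). Cdkn1a, which encodes the cell cycle inhibitor p21, did not follow, at 1219 CPM in Con and 1484 CPM in TP, each above the 376 and 678 CPM of the precursors.

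Regulators of the hair matrix and shaft differed gene by gene. Of 9 transcription factors compared 1 (Cux1, at 804 and 357 CPM) was at least 2-fold lower and none higher. Negative differences were seen in 6 of the 9, with a median of -0.28, and in 1426 of all 2356 genes compared. The 15 of the list together stood at 0.765 times the Con level (0.716 to 0.817). Without the 3 TP cells named above this was 0.886 (0.826 to 0.949). Lef1 had a lowest, median and highest level of 0, 14.6 and 52.8 per 10000 in Con and 0, 7.35 and 51.1 in TP, a ratio of 0.529 (0.457 to 0.613). The Lef1 ratio was 0.677 (0.582 to 0.785) without those 3 cells. After thinning, 83.6% of Con cells (71.2 to 92.2) and 43.3% of TP cells (25.5 to 62.6) had a Lef1 UMI, and 93.0% and 81.2% before thinning. In the immune barcodes these shares were 18.8% and 3.08% after thinning. Hoxc13, a homeobox factor that switches on hair keratin genes, was at 340 and 467 CPM (ratio 1.37, 1.06 to 1.78), and Foxn1, the factor missing in nude mice, at 402 and 443 CPM. Prdm1, a transcriptional repressor, was at 81.0 and 137 CPM, against 8.67 and 7.72 CPM in the precursors. Of 15 WNT and BMP pathway genes 1 was higher (Id1, 74.5 and 273 CPM) and 1 lower (Id2, 117 and 46.7 CPM), with a median of -0.47. Bmp2 was at 84.3 and 133 CPM, against 6.59 and 4.48 CPM in the precursors. Of 5 Notch pathway genes Notch1 was lower (269 and 117 CPM) and none was higher. Over all genes compared 4.12% were higher and 2.76% lower. No result about the transcription factors or these pathways is therefore read from 1 call in a direction. Without the 3 TP cells Notch1 (ratio 0.565) and Cux1 (log2 difference -0.98) no longer passed 2-fold. The Notch list's median of -0.23 turned to 0.61 in thinned cells.

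Structural genes of the shaft other than keratins differed gene by gene. Dsg4, the desmosomal cadherin of the hair cortex, was at 901 and 603 CPM (ratio 0.670, 0.552 to 0.811), with medians of 9.12 and 6.42 per 10000. Of 8 desmosome genes Dsg1a (97.2 and 327 CPM) and Pkp1 (266 and 550 CPM) were at least 2-fold higher and none was lower. Over all genes compared 4.12% were higher and 2.76% lower. Pkp1 was below 2-fold without the highest cells (0.98 on the log2 scale) and without the 3 TP cells named above (ratio 1.88). Padi4, an enzyme that converts arginine to citrulline, was at 428 and 303 CPM, and Tgm3, a transglutaminase that crosslinks hair proteins, at 211 and 410 CPM. The 5 genes compared of deimination, crosslinking and calcium binding had 1 higher (S100a3) and 1 lower (Tchh). Their median of -0.43 turned to 0.32 in thinned cells and 0.35 at a keratin limit of 100. The sum over all 10 genes of that list was 3.43 times as high in TP through S100a3, and 1.67 times (1.55 to 1.81) without the 3 TP cells. S100a3 still held 1138 of the 1411 TP UMIs of the list then, with 581 and 335 in single cells, against 594 of 1164 in Con. No rise of the list as a whole is therefore read from these sums. Of 7 genes of thiol and cysteine handling none passed 2-fold, and Txn1, or thioredoxin, had 376 and 663 CPM. Commd7, which stood at 88.9 and 81.2 CPM in the precursors, was lower in TP cortex cells (985 and 350 CPM), with medians of 7.30 per 10000 in Con and 1.76 in TP and highest cells of 46.7 and 26.2.

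Immediate-early genes, which respond to stimuli within minutes and also to tissue dissociation, were higher in TP. Of 9 compared 7 were at least 2-fold higher and none lower, with a median difference of 1.95. Fos had a lowest, median and highest level of 0, 0 and 20.9 per 10000 in Con and 0, 5.58 and 30.9 in TP, and was detected in 15 of 57 and 28 of 32 cells. After thinning these shares were 7.27% (2.02 to 17.6) and 63.3% (43.9 to 80.1), against 40% and 72.8% of the immune barcodes. The list summed to 1209 CPM in Con and 3661 CPM in TP, and was higher in TP in every neighbouring group too, at 1758 and 5829 CPM in the precursors and 4735 and 13829 CPM in the immune barcodes. Hspb1, a small heat shock protein abundant in differentiating keratinocytes, was the 1 chaperone of 9 past 2-fold (3662 and 8025 CPM), where 4.12% of all genes compared were higher. Without the 3 TP cells its ratio was 1.92, and without the highest cells 2 of the 9 passed 2-fold. Within the same list Hspd1 was at 412 and 250 CPM.

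All 12 mitochondrial genes compared had negative differences, with a median of -0.57, and mt-Atp8 alone passed 2-fold (651 and 283 CPM). The cells were selected for at most 10% mitochondrial UMIs. Cytosolic ribosomal protein genes had a median of 0.31 over 80 genes and nuclear oxidative phosphorylation genes 0.11 over 64, and none of these genes passed 2-fold. The largest drop among the genes compared was that of Slc39a10, a zinc importer, with 56 UMIs in 25 Con cells and 3 UMIs in 2 TP cells (ratio 0.0551, 0.0110 to 0.170). It was also lower in the immune barcodes, at 214 and 74.5 CPM. Gpnmb, a transmembrane glycoprotein known from melanocytes and macrophages, was at 314 and 63.3 CPM, with 13 of 97 Con UMIs in its highest cell. Sox5 had 76 UMIs in Con and 15 in TP, with 49 and 13 of them in 1 cell each. Fubp1, Nop14 and Zfas1 completed the 12 largest drops, with ratios of 0.281 to 0.289, and Gsn and Chl1 the 12 largest rises, with 82 and 58 UMIs in TP against 6 and 4 in Con. Without the 3 TP cells named above, 22 UMIs of Gsn and 31 of Chl1 remained in TP. The ratios were then 5.06 (1.99 to 15.2) and 10.7 (3.78 to 41.7).

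**Figure D5:**
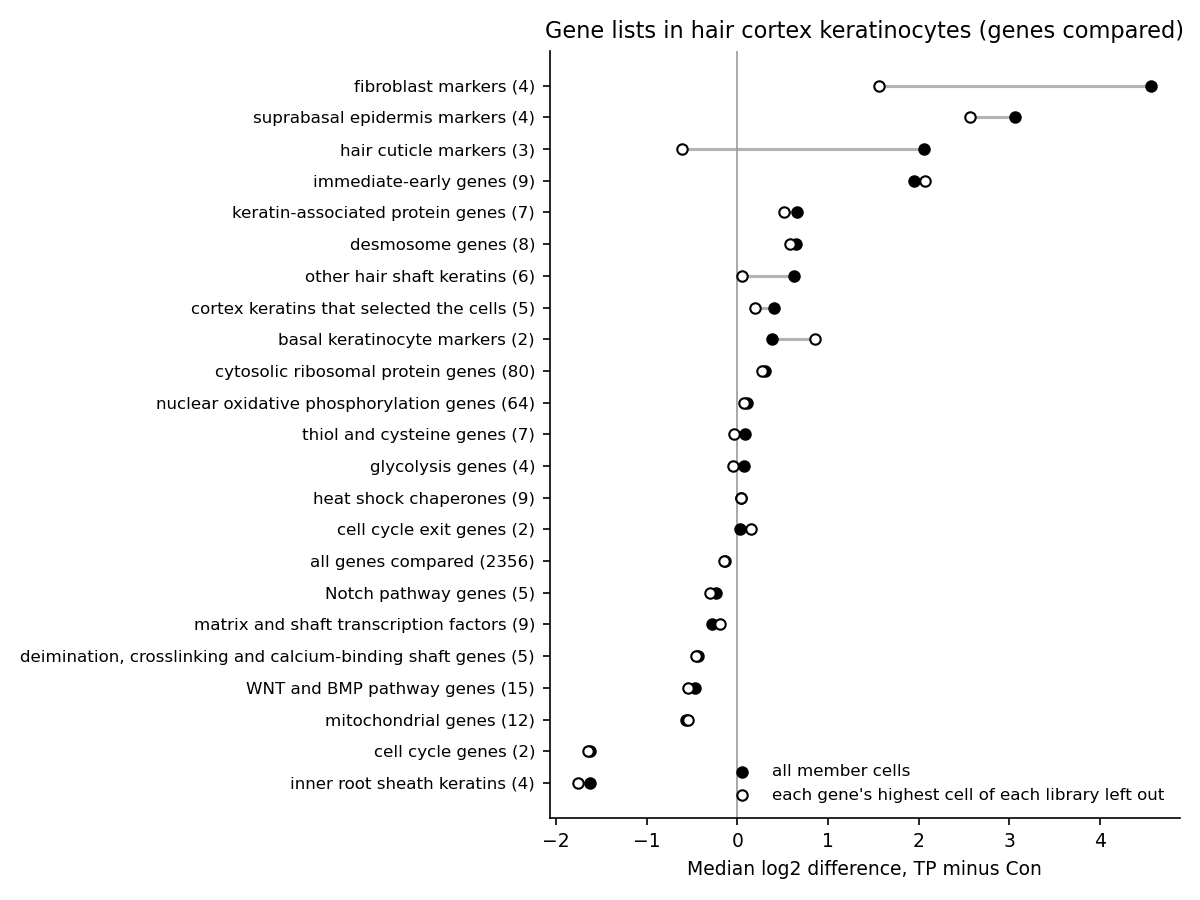
Median log2 difference, TP minus Con, of each gene list with at least 2 genes compared, with the number of genes in brackets, for all cortex cells (filled) and with the highest cell for each gene left out in each library (open). Suprabasal epidermis markers and immediate-early genes lie on the right and inner root sheath keratins and cell cycle genes on the left under both counts, while the hair cuticle markers change from 2.06 to -0.62.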

How the data were processed

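Skin cells of the Con and TP groups were analysed, 1 pooled library each. The authors prepared droplet libraries with 3′ chemistry and ran Cell Ranger 8.0.1 on the mm10 reference. The deposited values are raw counts of UMIs per gene and barcode, without normalization. The gene and mitochondrial limits follow the study's methods and were applied here. Its clustering was not repeated, since the keratin rule takes its place. Krt85 and Krt74 were not analysed here.

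Counts were summed over cells and divided by their total. Sums have exact Poisson intervals, shares Clopper-Pearson intervals and ratios exact conditional binomial intervals at 95%, for counting error only. A call is a difference of at least 1 on the scale of log2(counts per 10000 + 0.1) for genes that reached 50 UMIs over both libraries together. A ratio interval that excludes 1 was also asked of the named rises and drops, which every call met. No p-value was computed. Barcodes of the 7.5% highest Scrublet scores per library (scanpy 1.11.5) were removed only in an alternative. Shares of cells were also computed after thinning to 1000 UMIs. TMM factors came from edgeR 4.0.16 in R 4.3.3, and all else from scipy 1.17.1, pandas 2.3.3, numpy 2.4.6 and matplotlib 3.10.9 under Python 3.11.15. Call and interval functions were tested on simulated data. Immune barcodes had at least 3 UMIs of 6 immune markers including Ptprc or Cd74, and under 10 per 10000 of Krt5, Krt14, Krt71 and Krt25.

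The genes named are the hair shaft keratins, the 12 largest rises and drops, the 10 genes most enriched in the cells, the highest KAP genes and up to 4 genes per list. Commd7, Mki67 and Foxn1 fall outside this rule and were chosen after their values were seen. The members and lists were chosen with earlier results of these data known. Positions of 115 of 119 named genes came from RefSeq on GRCm38.p6.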

Additional observations from a re-analysis of the deposited data

How the results depend on the processing

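With 1 library per group and 57 and 32 cells, depth, single cells and the scaling each limit the comparison. No paired analysis was possible because each group has 1 library. The ratio of cortex cell shares, 1.18, was 0.677 at a keratin limit of 25, 3.44 per inner root sheath cell and 4.74 per precursor (a group defined by few Krt35 UMIs), and stayed within its interval under the other 8 alternatives (0.993 to 1.44).

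The counts of 97 higher and 65 lower genes depended most on the settings. TMM factors shifted every log2 difference by 0.23 and gave 145 higher and 31 lower genes, or 82.4% higher among those called against 59.9%. A pseudocount of 1 gave 55 and 11, a filter of 1 UMI 640 and 812, thinned cells 274 and 387, and means over cells 123 and 125. A limit of 100 gave 80 and 104. Without 3 TP cells, chosen after seeing the data because each held over 0.5 of the UMIs of at least 5 higher genes, 51 genes were higher and 44 lower. Leaving out each gene's highest cell, also chosen after seeing the data, gave 84 and 94, with the UMI limit not applied again.

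List medians moved as follows. A pseudocount of 1 brought inner root sheath keratins to -0.94, hair cuticle markers to 0.97, immediate-early genes to 1.10 and fibroblast markers to 2.45. Thinning brought suprabasal markers to 2.29, cuticle markers to 0.62, immediate-early genes to 2.62, and turned Notch genes to 0.61 and deimination, crosslinking and calcium-binding genes to 0.32. A limit of 100 turned the last to 0.35 and brought immediate-early genes to 1.29. Suprabasal markers were at 2.40 as means over cells and 3.71 with 4 keratins detected. A filter of 1 UMI brought cuticle markers to 1.21 and fibroblast markers to 2.88, and weighting by load brought cuticle markers to 1.41. Without the highest cells fibroblast markers were at 1.56, and cuticle markers (-0.62), Krt32 (-0.18), Krt82 (-0.62) and Dcn (-0.059) reversed. S100a3 and Krt10 fell to ratios of 0.820 and 3.24 with 3 cells left out in each library, chosen after seeing the data. Aldoa reversed in thinned cells (-0.28), and Procr without the 3 TP cells (-0.72). Of 46 named genes past 2-fold, 41 kept their sign and 22 stayed past 2-fold. These counts cover the alternatives run over all genes, where a gene was compared, and the removal of the 3 TP cells. They do not cover the removal of 3 cells in each library, under which S100a3 lost both its call and its sign. The cause of these shifts was not tested.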
